A study of Mus musculus with 6 samples.

Results

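The circadian clock of the cochlear nucleus was followed through 10 genes: the repressors Per1, Per2, Per3, Cry1 and Cry2, the activators Arntl (also written Bmal1) and Clock, the nuclear receptor Nr1d2, and the output factors Dbp and Tef. All probe sets carrying 1 of these symbols as their single gene name were taken, which gave 18 of the 22690 probe sets of an Affymetrix mouse array, for 10 of 12394 named genes. The tissue was the cochlear nucleus, where fibres of the auditory nerve first synapse in the brainstem, taken from mice aged 21 days after birth. Tetrodotoxin, which blocks voltage-gated sodium channels and so silences nerve firing, had been infused into 1 cochlea for 24 h by osmotic pump. The ipsilateral group is the nucleus on the infused side, and the contralateral group is the nucleus on the other side of infused mice. The labels call the contralateral nucleus the control. Each group had 3 replicates, which pooled 10 to 12 mice apiece; untreated mice were not analysed here, so a difference can arise on either side. No source used here gives the strain, the lighting or the hour of dissection.

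The clock is a loop of transcription and repression found in most cells of the body and brain. The proteins of Arntl and Clock pair and bind E-box sequences to switch on the Per and Cry genes, whose proteins return to inhibit the pair. In a second loop the REV-ERB receptors, made by Nr1d1 and Nr1d2, repress Arntl at sites that ROR receptors use to activate it. Dbp, Tef and their relative Hlf encode PAR bZIP factors that carry the rhythm to other genes through D-boxes, where Nfil3 opposes them. In a running clock Arntl messenger RNA is high at about the time when that of Nr1d1, Per1 and Dbp is low. Per1 and Per2 can also be induced within hours by light, neuronal firing or glucocorticoids.

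Upstream sequences of the members were searched for short letter matches to elements of the kind the loops use. Whether a match is bound or used was not tested. RefSeq promoters (GRCm38.p6, 250 bases before to 50 after a start) were found for 9 of 10 members, at 14 start sites, and Per2 had no entry. On both strands the windows were searched for the E-box CACGTG, the related CACGTT, the D-boxes TTATGTAA and TTACGTAA, the nuclear receptor element AGGTCA and the cyclic AMP response element TGACGTCA. None of these motifs contains another. A member was counted if the window of any of its start sites held the letters, while the shares are per single promoter. Members with several start sites therefore had more windows to match. In 3 members (Per1, Cry1 and Tef) a window held CACGTG, against 7.15% of all 32851 promoters. CACGTT stood in 2 members (Cry1 and Cry2), against 4.68% of promoters, and AGGTCA in 4 (Per1, Arntl, Clock and Nr1d2), against 16.3%. Per3 was the 1 member with an exact match to either of these D-boxes, which 1.06% of promoters held, and 0 members had TGACGTCA, which 1.79% held. The Dbp window held none of these letters, and that says nothing of sites elsewhere in the gene. The 250 bases before the start of 4 members follow, 5′ to 3′, with the matches in capitals. In Per1 (chr11:69098699-69098948, plus strand) CACGTG began 166 bases before the start and the receptor element, read on the other strand, 137 bases before it. In Per3 (chr4:151044666-151044915, minus strand) a D-box began 205 and another 158 bases before the start. In Cry1 (chr10:85185055-85185304, minus strand) the matches began 79 and 60 bases before the start. In Tef (chr15:81802423-81802672, plus strand) CACGTG began 127 bases before the first of its start sites.
Per1: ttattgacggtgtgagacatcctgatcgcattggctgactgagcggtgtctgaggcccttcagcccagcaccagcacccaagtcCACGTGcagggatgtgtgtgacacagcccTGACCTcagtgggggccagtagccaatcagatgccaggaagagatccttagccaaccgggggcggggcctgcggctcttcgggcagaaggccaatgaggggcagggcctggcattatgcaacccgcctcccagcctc
Per3: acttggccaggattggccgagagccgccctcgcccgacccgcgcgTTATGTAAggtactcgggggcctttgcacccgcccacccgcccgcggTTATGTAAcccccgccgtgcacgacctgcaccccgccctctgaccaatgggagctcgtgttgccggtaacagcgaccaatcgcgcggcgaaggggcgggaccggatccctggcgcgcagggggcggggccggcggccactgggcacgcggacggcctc
Cry1: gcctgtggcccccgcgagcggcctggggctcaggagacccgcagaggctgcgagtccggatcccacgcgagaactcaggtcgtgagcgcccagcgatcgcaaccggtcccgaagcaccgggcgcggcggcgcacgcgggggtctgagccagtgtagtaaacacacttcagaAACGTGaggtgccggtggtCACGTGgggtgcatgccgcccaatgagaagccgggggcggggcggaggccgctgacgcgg
Tef: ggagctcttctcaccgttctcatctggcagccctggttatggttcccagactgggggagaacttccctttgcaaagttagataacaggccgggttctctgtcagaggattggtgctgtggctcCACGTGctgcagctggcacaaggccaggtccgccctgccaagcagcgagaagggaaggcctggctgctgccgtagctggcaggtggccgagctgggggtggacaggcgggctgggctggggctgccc

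Values are on the log2 scale of GCRMA, and the 6 arrays had medians of 5.86 to 5.91. A mean above 4 was required for testing, which 15298 probe sets met. That included 16 of the 18 clock probe sets and at least 1 for each of the 10 members. Markers of neurons (12 of 12 listed genes), astrocytes (8 of 8) and oligodendrocytes (7 of 10) passed the same minimum. Markers of the choroid plexus, the secretory tissue next to the nucleus, varied most among the ipsilateral arrays. Averaged over 13 of 18 listed markers, contralateral replicates 1, 2 and 3 read 7.69, 7.35 and 6.95, and the ipsilateral ones 8.57, 4.99 and 5.15. In such tissue pools a smaller share of a cell type and less RNA per cell cannot be told apart. Arrays give no read depth, so their number limits the precision. Differences of dim probe sets, which GCRMA pulls toward background, are less certain.

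Among the members the output gene Dbp was the one whose sides were fully apart. Its brighter probe set (1438211_s_at) read 10.24, 10.54 and 10.22 contralaterally (replicates 1, 2 and 3) and 10.88, 10.59 and 10.67 ipsilaterally. All 3 infused-side values thus lay above all 3 of the other side, which held for 1 of the 16 clock probe sets and for 2.82% of all tested probe sets. The infused side was higher by 0.38 (SE 0.13, n = 3 each), a 1.30-fold difference with a 95% interval of 1.05 to 1.62. In limma the unadjusted p was 0.0227 and the Benjamini-Hochberg adjusted p over all tested probe sets was 1.00, so Dbp did not pass. An exact two-sided permutation test gave p = 0.1, the smallest that 3 against 3 can give. Within replicates 1, 2 and 3 it was higher by 0.64, 0.05 and 0.46, which makes 3 of 3 replicates. Microglial markers were also apart by side. Their mean over 9 of 10 listed genes was 6.69 to 6.87 contralaterally and 6.90 to 6.998 ipsilaterally. Higher on the infused side were 8 of 9 of them, 7 of 7 oligodendrocyte and 7 of 8 astrocyte markers, whose list means overlapped between sides. The same held for 5 of 12 neuronal, 6 of 11 cerebellar, 3 of 8 endothelial and 0 of 13 choroid plexus markers. Of all named genes tested it held for 49.1%. The part of cell content in the Dbp value was not tested.

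The second Dbp probe set (1418174_at) read 8.08, 8.62 and 8.16 contralaterally and 8.59, 8.52 and 8.27 ipsilaterally. Its sides overlapped, and the infused side was lower in replicate 2, with a mean difference of 0.17 (SE 0.17) over replicates. As arrays or replicates were left out it ran from 0.0056 without replicate 1 to 0.34 without contralateral replicate 2 (limma, unadjusted p = 0.979 and 0.0440). The mean of both probe sets differed by 0.28 (limma, unadjusted p = 0.0848). For the brighter probe set the unadjusted limma p was above 0.05 without contralateral replicate 1 (0.0717) or 3 (0.0733), ipsilateral replicate 1 (0.0768), or both arrays of replicate 1 (0.185) or 3 (0.106). The difference was smallest without replicate 1 of both sides, at 0.25. With the choroid plexus level in the model it was 0.46 (limma, unadjusted p = 0.0147).

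Tef, which encodes a PAR bZIP factor related to that of Dbp, was read by 3 probe sets that disagreed. The brightest (1424175_at) read 9.23, 8.65 and 8.88 contralaterally and 9.19, 9.35 and 9.17 ipsilaterally. Contralateral replicates 2 and 3 lay below all ipsilateral ones, while contralateral replicate 1 lay inside the ipsilateral range. The infused side was higher by 0.31 (SE 0.16, limma unadjusted p = 0.0873, adjusted p = 1.00), or 1.24-fold with an interval of 0.96 to 1.61. Replicate 2 differed most, by 0.70, against -0.04 and 0.28 in replicates 1 and 3. The value moved both ways with single arrays: it was 0.47 without contralateral replicate 1 (limma, unadjusted p = 0.0110, adjusted p = 1.00) and 0.18 without contralateral replicate 2 (unadjusted p = 0.259). It was 0.49 without both arrays of replicate 1 and 0.12 without both of replicate 2 (limma, unadjusted p = 0.0266 and 0.483).

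The dimmer Tef probe sets differed from each other most in replicate 2. One (1450184_s_at) read 5.24, 6.46 and 6.06 contralaterally and 6.18, 5.40 and 6.08 ipsilaterally, a difference of -0.04 (SE 0.34). The other (1438033_at) read 5.10, 4.17 and 4.32 contralaterally and 5.28, 5.77 and 4.26 ipsilaterally, a difference of 0.57 (SE 0.41). In replicate 2 the first differed by -1.07 and the second by 1.61, while in replicate 1 both were higher on the infused side, by 0.94 and 0.18. The second ranged widely with the arrays used, from 0.06 without replicate 2 and 0.24 without ipsilateral replicate 2 to 0.996 without ipsilateral replicate 3 (limma, unadjusted p = 0.0185, adjusted p = 1.00). Their intervals, -0.85 to 0.77 and -0.41 to 1.55, both include 0. The mean of the 3 tested probe sets of Tef differed by 0.28 (limma, unadjusted p = 0.0499, adjusted p = 1.00).

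**Figure D1:**
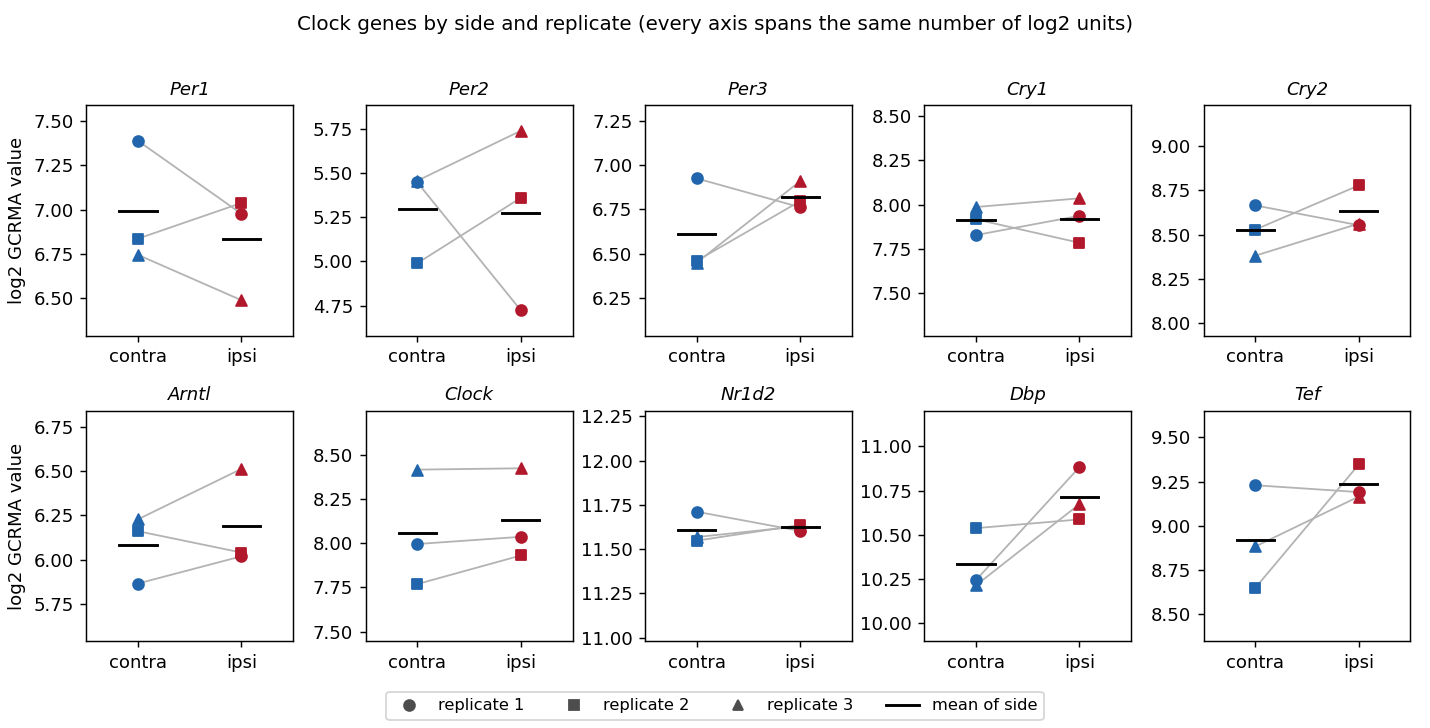
Log2 GCRMA values of the brightest tested probe set of each of the 10 clock genes on the contralateral (blue) and ipsilateral (red) arrays, with marker shape for the replicate, a grey line joining both sides of a replicate and a black bar for the mean of 3. Dbp is the gene whose sides do not overlap, and the Clock and Per1 panels show replicate 3 at the edge on both sides.

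The Period genes showed no common direction between the sides. Per1, which acute stimuli can induce, read 7.39, 6.84 and 6.74 contralaterally and 6.98, 7.04 and 6.49 ipsilaterally. The sides overlapped, and the side difference was -0.41 and -0.26 in replicates 1 and 3 and 0.20 in replicate 2. The mean difference was -0.16 (SE 0.22), with a 95% interval of -0.67 to 0.36, which covers both a fall and a rise. It was 0.04 without contralateral replicate 1 and 0.02 without ipsilateral replicate 3.

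Per2, which encodes a repressor closely related to that of Per1, read 5.45, 4.99 and 5.46 contralaterally and 4.72, 5.36 and 5.74 ipsilaterally. Ipsilateral replicates 1 and 3 were its lowest and highest arrays, so the infused side spanned the other. The difference was -0.02 (SE 0.27, interval -0.66 to 0.61), and it ran from -0.26 to 0.33 as arrays or replicates were left out. Its second probe set (1417603_at) read between 2.77 and 3.22 on all 6 arrays and was too dim to be tested.

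Per3, whose protein the core loop can largely do without, gave opposite directions by probe set. The brightest (1421087_at) read 6.93, 6.46 and 6.45 contralaterally and 6.76, 6.80 and 6.91 ipsilaterally, a difference of 0.21 (SE 0.15, limma unadjusted p = 0.197). It was 0.37 without contralateral replicate 1 (limma, unadjusted p = 0.0142, adjusted p = 1.00), and 0.14 and 0.13 without contralateral replicates 2 and 3. It was 0.40 without both arrays of replicate 1 (limma, unadjusted p = 0.0292), 0.15 without replicate 2 and 0.09 without replicate 3. A dim probe set (1421086_at) read 4.57, 4.92 and 3.76 contralaterally and 3.71, 4.20 and 3.59 ipsilaterally, a difference of -0.58 (SE 0.31). The dim one was lower on the infused side in 3 of 3 replicates, although its sides overlapped. Its unadjusted limma p was 0.101 and, with the replicate number as a block, 0.0167 (adjusted p = 1.00 and 0.991), and its mean of 4.12 is near the minimum of 4. The third (1460662_at) read between 2.93 and 3.49 and was not tested. The mean of both tested probe sets of Per3 differed by -0.19, so the direction of this gene depends on the probe set.

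The Cryptochrome genes, whose proteins are the direct inhibitors of the CLOCK and BMAL1 pair, varied least among the repressors. Cry1 read 7.83, 7.92 and 7.99 contralaterally and 7.94, 7.79 and 8.04 ipsilaterally. The difference was 0.01 (SE 0.10), and its 95% interval reached from a 0.85-fold to a 1.19-fold signal. Cry2 read 8.67, 8.53 and 8.38 contralaterally and 8.55, 8.78 and 8.56 ipsilaterally, a difference of 0.11 (SE 0.12, 0.89-fold to 1.30-fold). Both genes had overlapping sides, and these intervals still admit changes of that size.

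The activators likewise had overlapping sides. Arntl, the gene for the partner that no other clock factor fully replaces, read 5.87, 6.16 and 6.23 contralaterally and 6.02, 6.04 and 6.51 ipsilaterally. Its difference was 0.11 (SE 0.17, interval -0.30 to 0.51), and it turned to -0.06 without ipsilateral replicate 3 and to -0.0037 without contralateral replicate 1. Clock, whose product is the partner of BMAL1, read 8.00, 7.77 and 8.42 contralaterally and 8.04, 7.93 and 8.42 ipsilaterally on its brighter probe set (1418659_at). The infused side was higher in 3 of 3 replicates by between 0.01 and 0.16, with a mean of 0.07 (SE 0.20). The second Clock probe set (1418660_at) read 8.12, 7.88 and 7.98 contralaterally and 8.10, 7.92 and 8.18 ipsilaterally, a difference of 0.08 (SE 0.11).

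Nr1d2, which makes the receptor REV-ERB beta, had the narrowest values of any member on its bright probe set (1416958_at). It read 11.71, 11.55 and 11.57 contralaterally and 11.60, 11.64 and 11.63 ipsilaterally. The difference was 0.01 (SE 0.09), with an interval of 0.87-fold to 1.17-fold. The dimmer probe set (1416959_at) read 6.64, 6.95 and 6.998 contralaterally and 7.25, 6.46 and 7.28 ipsilaterally, a difference of 0.13 (SE 0.24). On that probe set replicate 2 differed by -0.49 and replicates 1 and 3 by 0.61 and 0.28.

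**Figure D2:**
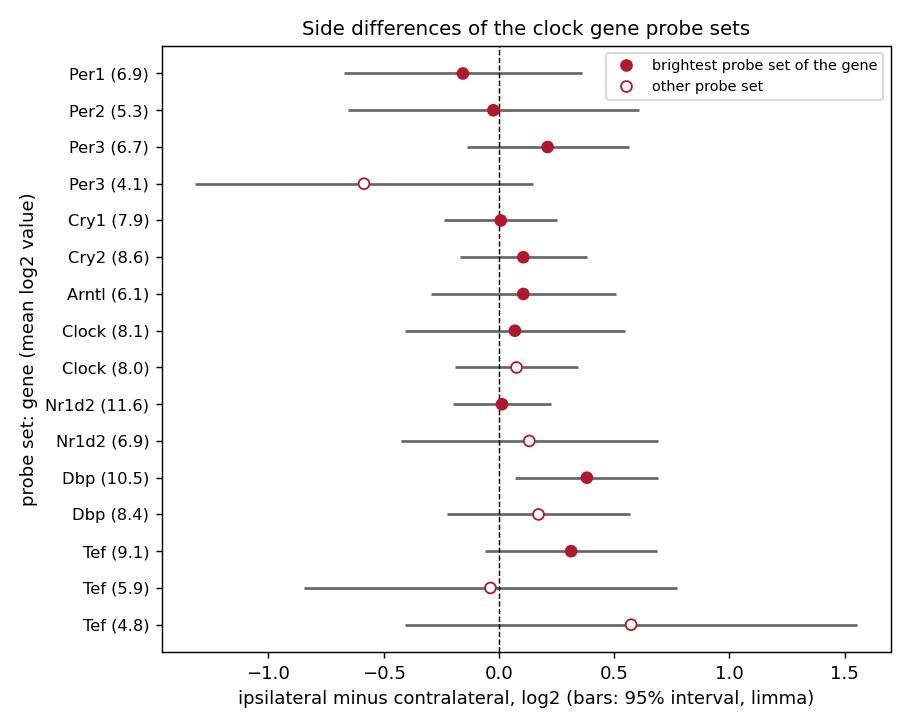
Ipsilateral minus contralateral difference (log2) of the 16 tested clock probe sets with 95% intervals from limma, each row named by gene and mean log2 value; filled points are the brightest probe set of a gene. The interval of the brighter Dbp probe set, 0.07 to 0.69, is the one that leaves out 0.

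Counted together, 0 of the 16 clock probe sets passed the adjusted threshold of 0.05 in limma, as did 0% of all tested probe sets. At an unadjusted p under 0.05 limma gave 1 of 16 (Dbp), against 2.38% of all tested probe sets (364), and in its direction, higher on the infused side, 1.16%. A single call in 16 is no result about the clock genes as a group. With the replicate block limma gave 2 of 16 (Dbp and the dim Per3 probe set), against 3.72% (569), and a plain equal-variance test gave 423 probe sets in all and 0 after adjustment. The infused side was the higher one for 12 of 16 clock probe sets, against 48.2% of all. By brightest probe set it was higher for 8 of 10 genes, and the median of their log2 differences was 0.09; over all 8754 named genes tested that median was -0.003. Several of these differences are far below their standard errors, so the count of directions describes the values and supports no call.

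The members spread more between replicates than the typical probe set, by an amount that depended on the gene. The SD of a log2 value within a side had a median of 0.24 over the 16 clock probe sets and of 0.16 over all tested ones, and 12 of the 16 lay above the latter. Restricted to means above 6, where values are steadier, the medians were 0.21 and 0.15. The widest was the dim Tef probe set 1438033_at, with an SD of 0.65 that exceeded 99.0% of tested probe sets. Per2 had an SD of 0.41 and Per1 of 0.33, above 93.8% and 87.4% of tested probe sets. At the other end the bright probe set of Nr1d2 had an SD of 0.06, above 7.71% of them, and that of Cry1 0.11, above 24.5%. The dimmer Nr1d2 probe set (1416959_at) was not steady, with an SD of 0.35, above 90.3%. Dbp, at 0.17 for its brighter probe set, was as steady as the median probe set.

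**Figure D3:**
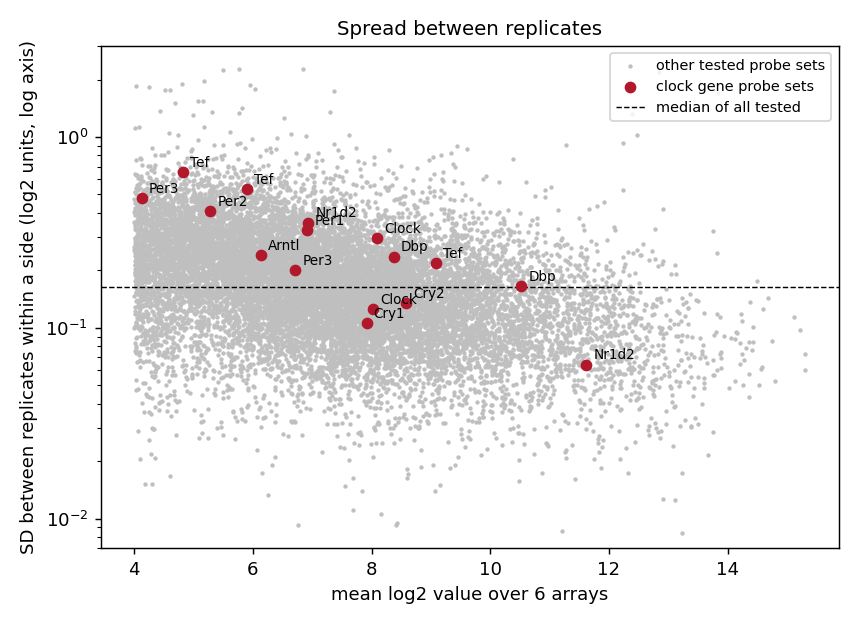
SD between replicates within a side (log2 units, log axis, pooled over both sides) against the mean log2 value for all tested probe sets (grey) and the clock probe sets (red, named); the dashed line is the median of 0.16. Per3, Per2 and Tef lie high among dim probe sets. The bright Nr1d2 probe set lies low and the dimmer one lies high.

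Same-numbered arrays were read as both sides of the same mice. Over all tested probe sets their deviations from the side means correlated at 0.57 in replicate 3, against 0.09 and 0.04 in replicates 1 and 2. Pairs of unlike number reached 0.30. Part of the spread of the members was shared by both arrays of replicate 3. Clock was the clearest case: both arrays of replicate 3 read 8.42, and the other 4 read at most 8.04. Arntl was also highest on both arrays of replicate 3 (6.23 and 6.51, others at most 6.16), and so were Cry1 (7.99 and 8.04, others at most 7.94) and Per2 (5.46 and 5.74, others at most 5.45). Per1 was lowest on both (6.74 and 6.49, others at least 6.84). The second Clock probe set did not share this: its lowest arrays were both of replicate 2, and contralateral replicate 3, at 7.98, lay below both arrays of replicate 1.

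Replicate 3, however, set apart a large part of the array. Both of its arrays lay above or both below the other 4 for 5 of 16 clock probe sets and for 33% of all tested probe sets (18% above and 14.9% below), so the clock genes did so about as often as the rest. Both arrays of replicate 1 were lowest for 1 clock probe set (Arntl) against 6.54% of all and highest for 0 against 6.29%. Both arrays of replicate 2 were lowest for 2 (both of Clock) against 8.09% and highest for 0 against 7.99%. Over any of the replicates this gave 6 of 16, against 49.2% of all. Differences between the replicates were tested with an F-test in limma that allowed for the side. That gave an unadjusted p under 0.05 for 2 of 16 clock probe sets, against 12.4% of all tested (1903). They were Clock (1418659_at), with an unadjusted limma p of 0.00811 (adjusted 0.359), and the dim Per3 probe set, with 0.0199 (adjusted 0.365). After adjustment limma gave 0 clock probe sets and 0% of all. Per1 and Arntl had an unadjusted limma p of 0.0660 and 0.0676. These counts moved with single arrays: 5 clock probe sets had an unadjusted p under 0.05 without contralateral or ipsilateral replicate 2, 1 without ipsilateral replicate 3 and 0 without contralateral replicate 3. The count over all tested probe sets shifted with them, to 2402, 2391, 540 and 656.

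**Figure D4:**
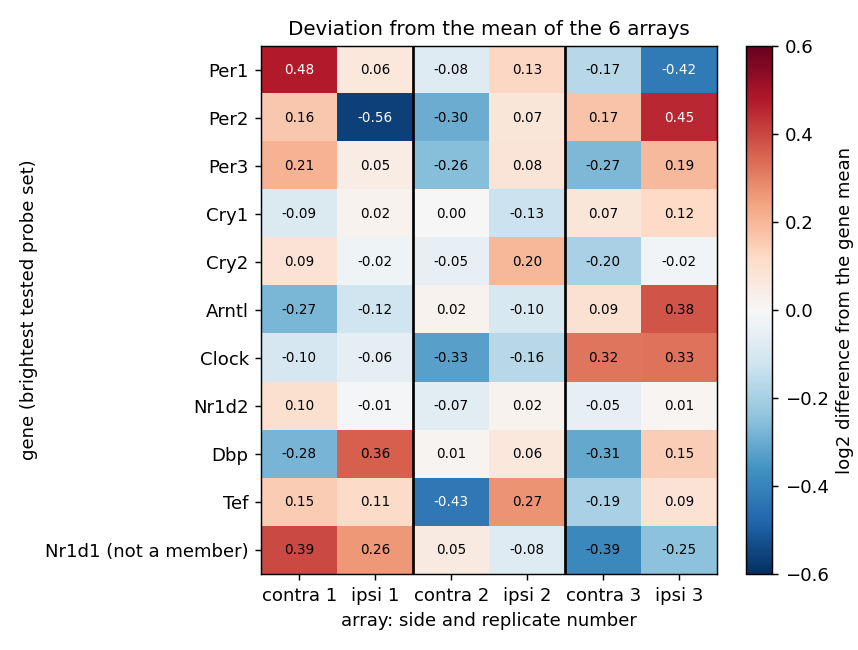
Deviation of each array from the mean of the 6 arrays (log2, red above and blue below) for the brightest tested probe set of the 10 clock genes and for Nr1d1, with black lines between replicates and both sides of a replicate next to each other. Arntl, Clock, Cry1 and Per2 are above their means on both arrays of replicate 3, and Per1, Cry2 and Nr1d1 are below theirs.

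Neuronal, cerebellar and hormone-responsive genes stood apart in replicate 3 in their list means. The mean of 12 neuronal markers was 10.31 and 10.43 on its arrays and between 10.04 and 10.11 on the others, with 6 of 12 highest on both of its arrays and 1, Tubb3, lowest on both. That of 11 of 12 listed markers of cerebellar granule and Purkinje cells was 9.70 and 9.73, against 9.26 to 9.46, with 6 of 11 highest and 1 lowest. Of all tested probe sets 18% were highest and 14.9% lowest on both arrays of replicate 3. The list means of astrocyte, oligodendrocyte, microglial, endothelial and choroid plexus markers in replicate 3 overlapped those of the other arrays. Of 15 genes induced by glucocorticoids, hormones with a daily rhythm, the mean was 9.40 and 9.49 in replicate 3 and between 9.69 and 9.85 on the other arrays. These 15 genes were named after their values were seen. The part of cell content or hormone level in the replicate 3 values of Clock, Arntl and Per1 was not tested.

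**Figure D5:**
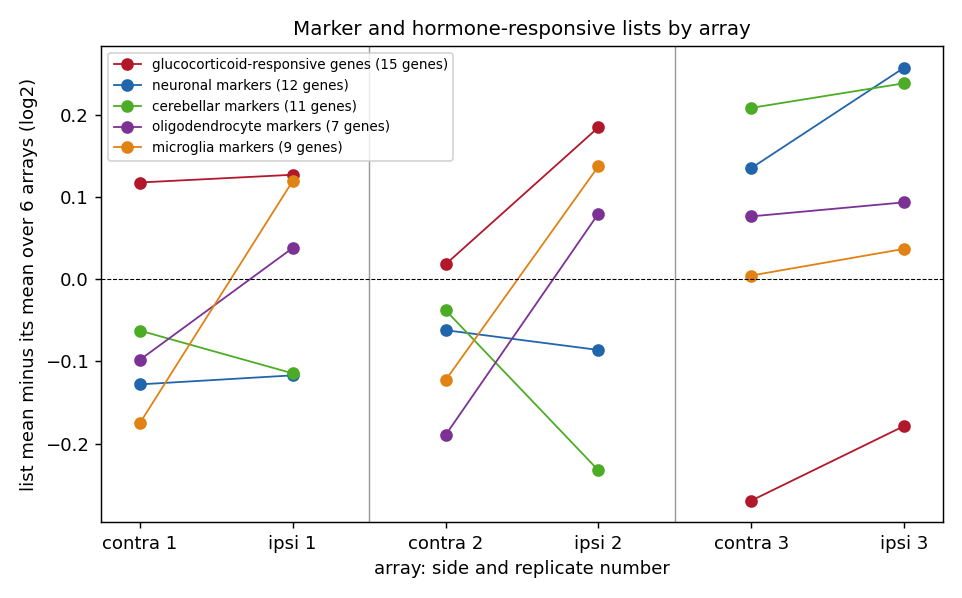
Mean of each gene list on each array minus the mean of that list over the 6 arrays (log2), with lines joining both sides of a replicate. Neuronal and cerebellar markers are high and the 15 glucocorticoid-responsive genes low on both arrays of replicate 3.

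A list of other clock and output genes held 36 symbols, among them Ccrn4l, the former symbol of Noct, and 25 genes were tested. Of these 14 were higher and 11 lower on the infused side, their median log2 difference was 0.04, and 0 passed the adjusted threshold in limma. Nr1d1, the gene for REV-ERB alpha, read 5.79, 5.45 and 5.01 contralaterally and 5.66, 5.32 and 5.15 ipsilaterally. Its side difference was small (-0.04, SE 0.22), while both arrays of replicate 1 were the highest and both of replicate 3 the lowest. By replicate means that placed it with Per1 and opposite Arntl, and Per2 had the order of Arntl. Of the dimmer Tef probe sets 1438033_at had the order of Per1 and 1450184_s_at that of Arntl. On their tested probe sets Cry1, Cry2, Clock, Per3 and Nr1d2 showed neither the order of Nr1d1 nor its reverse. The bright probe set of its relative Nr1d2 had replicate means of 11.66, 11.59 and 11.60 (limma F-test, unadjusted p = 0.811). The brighter one of Dbp had 10.56, 10.56 and 10.44 (limma F-test, unadjusted p = 0.737). Per2 and Cry1 were, like Arntl, highest on both arrays of replicate 3.

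At an unadjusted limma p under 0.05 the side fit gave 2 of the 25 others, both lower on the infused side, against 1.22% of all tested in that direction. Rorb, which encodes a ROR family receptor, read 5.86, 5.77 and 5.70 contralaterally and 5.43, 5.51 and 5.42 ipsilaterally (-0.32, SE 0.09, unadjusted p = 0.00936, adjusted p = 1.00). Noct, which encodes nocturnin, a rhythmic enzyme also inducible by acute stimuli, read 8.85, 8.70 and 8.67 contralaterally and 8.32, 8.45 and 8.53 ipsilaterally (-0.30, SE 0.10, unadjusted p = 0.0211, adjusted p = 1.00). For both genes the sides did not overlap, which held for 3.44% of all tested probe sets in that direction. Csnk1e, the gene for casein kinase 1 epsilon, which phosphorylates PER proteins, differed by 0.35 (SE 0.16), and Nfil3, the D-box repressor, by -0.16 (SE 0.12). Hlf, the third PAR bZIP gene, named here after its values were seen, read 9.37, 8.66 and 8.93 contralaterally and 8.93, 9.55 and 9.03 ipsilaterally (0.18, SE 0.23), with its lowest and highest values on the same arrays as the brightest Tef probe set.

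Between replicates 7 of the 25 had an unadjusted limma p under 0.05, against 12.4% of all tested probe sets, and 0 passed after adjustment. The smallest unadjusted limma F-test p was that of Tspan4, a tetraspanin gene, at 0.00864 (adjusted 0.359). Next came Nr1d1 at 0.0105, Wee1, a cell cycle kinase gene driven by the clock, at 0.0166, and Rora, whose product activates Arntl, at 0.0176. Tspan4 read 7.75 and 7.96 in replicate 3 and at least 8.28 elsewhere. Wee1 read 7.14 on both arrays of replicate 3 and at most 6.87 elsewhere, and Rora 9.45 and 9.62 against at most 9.28. Rora and Wee1 were thus high and Tspan4 low where Arntl and Clock were high, but these 3 were named for their small replicate p. Of the 25 genes 5 were highest and 7 lowest on both arrays of replicate 3. Among all tested probe sets 18% were highest and 14.9% lowest there.

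The genes whose arrays followed a member most closely were sought among 3221 named probe sets (3222 for Arntl) with an SD of 0.25 or more, as a description over 6 arrays, of which same-numbered ones were read as the same mice. With Dbp the 4 nearest were Gcc2 (r = 0.98), Nprl3 (0.93), Cd2ap (0.93) and Syne1 (0.92). Those nearest Per1 were Slc20a1 (0.96), Mpzl2 (0.96), Brwd1 (0.96) and Zfp280d (0.96). Those nearest Arntl were Cd93 (0.98), Dusp19 (0.97), the neuronal marker gene Rbfox3 (0.97) and Mtm1 (0.97). Other clock genes were not among the 4 nearest of any of these 3. The SD minimum had left out several of their probe sets beforehand, among them the brightest of Cry1, Cry2, Per3, Arntl and Nr1d2. Their absence therefore says little about the clock genes.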

How the data were processed

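Each of the 6 RNA pools had an array of its own. The authors deposited log2 expression per probe set, made with GCRMA, which corrects background, normalizes between arrays and summarises probes, per the submitters' processing notes. No source used here gives its version. That the scale is log2 was judged from the range, 1.40 to 16.0. The samples' descriptions gave side and replicate. Gene names came from the repository's platform annotation (20393 with 1 symbol, 691 with several, 1606 with none), and all 18 clock probe sets matched a RefSeq gene of that symbol by Entrez identifier.

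After leaving out 64 control probe sets and 7328 with a mean of 4 or less, 15298 were fitted with limma 3.58.1 (R 4.3.3; lmFit, eBayes) for the side difference over 6 arrays, with Benjamini-Hochberg adjustment and a threshold of 0.05. Replicates were compared with an F-test on the replicate number beside the side. Same-numbered arrays were read as both sides of the same mice, since 1 ear was infused and tissue was pooled by replicate. Their deviations from the side means correlated at 0.09, 0.04 and 0.57 across tested probe sets, and those of other pairs between -0.37 and 0.30. The replicate block was an alternative; the others are in the closing section.

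All probe sets of the members are reported. A gene was represented by its brightest tested probe set. Of the other clock genes Nr1d1, the 4 of smallest side p and the 4 of smallest replicate p were named, and the 4 nearest to Dbp, Per1 and Arntl by Pearson correlation. Hlf and the glucocorticoid-responsive genes were named after their values were seen. Members and lists were chosen with earlier results of these data known. The fits were tested on simulated data. Nothing says that the pools were extracted on separate days, so p-values measure the spread between these pools.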

Additional observations from a re-analysis of the deposited data

How the results depend on the processing

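Over 292 recomputed side differences of clock probe sets 263 kept their direction, 29 turned in sign and 0 passed the adjusted threshold. With array weights Nr1d2 (1416958_at) turned to -0.0038 and Tef (1450184_s_at) to 0.071, with the choroid plexus covariate that Tef probe set to 0.067, and with gene means Per3 to -0.19. As arrays or replicates were left out, Per1 ran from -0.33 to 0.044, Per2 from -0.26 to 0.33, Cry1 from -0.050 to 0.079, Arntl from -0.055 to 0.22, Clock (1418659_at) from -0.077 to 0.25, Nr1d2 from -0.024 to 0.075 (1416958_at) and -0.11 to 0.44 (1416959_at), and Tef (1450184_s_at) from -0.52 to 0.48. Dbp kept its direction in every setting run, with 0.25 to 0.55 for 1438211_s_at and 0.0056 to 0.34 for 1418174_at. Tef 1424175_at ran from 0.12 to 0.49 and 1438033_at from 0.056 to 0.996, and Per3 1421087_at from 0.087 to 0.40.

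In these fits the side comparison gave 0 to 5 tested probe sets past the adjusted threshold (5 without ipsilateral replicate 1 and 2 without replicate 1, choroid plexus genes each time), 300 to 522 at an unadjusted p under 0.05, and 0 to 2 of the clock probe sets (0 without ipsilateral replicate 1). The unadjusted side count was 233 with a mean above 6, 230 with gene means and 569 with the replicate block, which gave 2 clock probe sets and changed no adjusted call. With gene means the 1 clock gene at an unadjusted p under 0.05 was Tef, not Dbp. Between replicates 540 to 2402 had an unadjusted p under 0.05 as arrays were left out, with 0 to 5 of the clock probe sets; 2977 did so with no filter and 1153 with gene means. Clock probe sets numbered 4 with array weights, 6 with the choroid plexus covariate, 1 with gene means and 1 without the side in the model, where all tested numbered 2533, 2053, 1153 and 2231. With a trended and robust variance 1 probe set, of Malat1, passed the adjusted threshold between replicates. Gene means test fewer features; the cause of the other shifts was not tested. Differences of dim members are less certain. The replicate comparison could not be run without both arrays of a replicate.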

Other observations

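Genes induced by glucocorticoids, the adrenal hormones that also act on Per1, also varied between replicates. The 15 such genes listed were named after their values were seen, so their counts describe the list and support no call. Of them 11 were lowest on both arrays of replicate 3, which held for 14.9% of all tested probe sets. In the limma F-test between replicates 4 had an unadjusted p under 0.05, against 12.4% of all tested, with 0 after adjustment. Cdkn1a, the gene for the cell cycle inhibitor p21, read 8.46 and 8.44 in replicate 3 and between 9.43 and 9.76 on the other arrays (unadjusted p = 6.45e-04 in limma). Plin4, a lipid droplet coat gene, read 6.58 and 6.88 in replicate 3 and at least 7.51 elsewhere. Fkbp5, a chaperone of the glucocorticoid receptor, read 8.50 and 8.49 against at least 8.57, and the kinase gene Sgk1 12.28 and 12.19 against at least 12.44. Tsc22d3, which encodes GILZ, went the other way, with 11.04 and 11.14 in replicate 3 and at most 10.91 elsewhere. Of the members that glucocorticoids can induce, Per1 was lowest and Per2 highest on both arrays of replicate 3. The part of hormone level in these values was not tested.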
